A study of Mus musculus with 2 samples.

Results

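Igfbp3 and Fgl2 marker fibroblasts of the mouse heart valve are described here as a set of cell barcodes chosen by 2 counts. A barcode was a member if the matrix genes Col1a1, Col1a2, Col3a1 and Dcn together took at least 1% of its unique molecular identifiers (UMIs) and if it carried at least 3 UMIs of Igfbp3, Fgl2, Cxcl5, Bmx and Scn7a together. In the postnatal day 7 (P7) library 81 of 722 barcodes with that matrix share were members, or 11.2% (9.01 to 13.8). In the postnatal day 30 (P30) library 487 of 2846 were members, or 17.1% (15.7 to 18.5). Together they were 568 of 3568 matrix barcodes and of 4473 barcodes in all. The remaining 641 and 2359 matrix barcodes of the same library served as the comparison and are called the other matrix barcodes.

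The libraries held cells of aortic and mitral valves of C57BL/6J mice, profiled by Drop-seq, a droplet method that counts the 3' ends of transcripts by UMI. Each age was 1 library, the number of mice was not given, and no treatment or genetic change was labelled at either age. Age and sequencing run therefore cannot be told apart. Without a second library per age no test was possible, so levels are UMIs per 1000000 (CPM) summed over a set of barcodes, and intervals are exact, at 95%, and cover counting error only.

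Valve interstitial cells are the fibroblasts inside the leaflet that make and remodel its collagen, proteoglycan and elastin layers. Fibroblasts of many tissues also take part in immune defence by secreting chemokines, which attract white blood cells, and complement proteins, which tag cells and debris for removal. Among the 5 markers, Igfbp3 encodes a binding protein for insulin-like growth factors, Fgl2 a fibrinogen-like protein that acts on coagulation and on immune cells, Cxcl5 a chemokine for neutrophils, Bmx a non-receptor tyrosine kinase and Scn7a a sodium channel that responds to extracellular sodium.

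The neutrophil chemokine genes Cxcl1 and Cxcl2 were among the 20 genes named below as higher in members than in the other matrix barcodes at both ages. Their promoters are shown because the 2 genes lie side by side and carry the same NF-kB motif. The stretches run from 250 bases before to 50 after the transcription start (RefSeq, build GRCm38.p6, plus strand), at chr5:90890995-90891294 for Cxcl1 and chr5:90903649-90903948 for Cxcl2. Capitals mark matches to the NF-kB motif, which overlap on both strands.
Cxcl1: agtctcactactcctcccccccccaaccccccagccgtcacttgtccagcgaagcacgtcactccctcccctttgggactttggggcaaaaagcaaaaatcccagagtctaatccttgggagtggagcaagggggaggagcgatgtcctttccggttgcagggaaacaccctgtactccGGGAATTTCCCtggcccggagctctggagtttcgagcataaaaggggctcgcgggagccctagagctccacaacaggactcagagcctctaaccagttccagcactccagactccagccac
Cxcl2: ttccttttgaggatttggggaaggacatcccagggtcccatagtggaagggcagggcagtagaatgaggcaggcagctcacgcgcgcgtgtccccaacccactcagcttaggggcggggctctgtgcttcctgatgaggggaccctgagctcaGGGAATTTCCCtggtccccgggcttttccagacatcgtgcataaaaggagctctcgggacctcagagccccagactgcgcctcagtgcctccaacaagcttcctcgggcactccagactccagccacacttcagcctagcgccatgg
The match began 71 bases before the start of Cxcl1 and 97 before that of Cxcl2. Such a match was in 8.46% of all 32851 promoters of this length. The sequence table held 12 of the 20 genes named below as higher in members, of which 3 had a match, Cxcl1, Cxcl2 and Sh3bp5 at 1 of its 2 starts. It held 4 of the 5 rule markers, and 0 of these had a match. The interferon-stimulated response element (GAAA, any 2 bases, GAAA), searched on both strands, was in 3.44% of all promoters and in 1 of the 12, Vldlr. A match describes the sequence and does not show that a factor bound there.

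Members carried the fibroblast markers of their label. All 24 fibroblast markers were detected in members of both libraries, with a summed level of 32442 CPM against 35674 in the other matrix barcodes at P7 and 34356 against 35097 at P30. All members carried at least 3 UMIs of them, as did 99.8% of the other matrix barcodes at P7 and 100% at P30. Of barcodes under 1% matrix share 79.1% and 85.0% did, so this count separates the sets little. The platelet-derived growth factor receptor gene Pdgfra was at 127 CPM in members against 82.7 at P7 and at 121 against 53.8 at P30. Of the 24 markers only 9 lay above equal levels at P7 and 14 at P30, with median log2 ratios of -0.24 and 0.10. At 2-fold, 2 were higher and 2 lower at P7, and 3 were higher and 1 lower at P30. Pdgfra was among the higher ones at P30 only, and Mfap5 was lower at both ages. The shares over all measured genes (as defined below) were 3.53% higher and 8.2% lower at P7, and 4.25% and 5.17% at P30.

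Markers of other cell types were present in members. Endothelial markers summed to 476 CPM against 532 in the other matrix barcodes at P7 and to 533 against 538 at P30. Cldn5 was at 0 in members of both libraries, but other endothelial genes were not low. Of 4 measured (as defined below) at P7, Tek was at least 2-fold higher. Of 12 at P30, Emcn and Tek were higher and 10 lay above equal levels. Ptprb was lower at both ages. At least 3 endothelial UMIs were held by 22.2% of members against 18.6% at P7 and by 19.1% against 18.8% at P30. Mural markers summed to 671 against 711 and to 511 against 844 CPM, and at least 3 mural UMIs were held by 37.0% against 25.6% and by 24.02% against 28.1%. Of 8 measured mural genes 2 were at least 2-fold higher at P7, Kcnj8 and Notch3, and 3 were lower. At P30 3 of 10 were higher, Notch3, Kcnj8 and Abcc9, and 4 were lower. Over all measured genes 3.53% were higher and 8.2% lower at P7, and 4.25% and 5.17% at P30. Macrophage markers differed between the libraries. They summed to 9.28 CPM against 58.6 at P7, with 13 of 16 markers at 0 in members, among them C1qa, Csf1r and Ptprc, and 0 members held 3 macrophage UMIs. At P30 they summed to 458 CPM against 139, with 0 of 16 at 0, and 9 members held at least 3 macrophage UMIs. Haemoglobin and other erythroid RNA was at 3007 CPM against 11096 at P7 and 3897 against 2844 at P30. Markers of MHC class II cells were at 21.7 against 92.4 and 277 against 318. T lymphocyte, mast cell, Schwann, melanocyte, cardiomyocyte and mesothelial markers each summed to at most 62.8 CPM in members. The adipocyte list summed to 851 against 625 and 155 against 176 CPM, with its defining gene Adipoq at 0 in members and in the other matrix barcodes. Plin1 and Retn of that list had UMIs in P30 members but not in the other matrix barcodes of that library. At least 3 adipocyte UMIs were held by 30.9% of members against 12.6% at P7 and by 5.34% against 4.37% at P30. No doublet caller was run, so doublets may remain among the members, and their share was not tested.

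Members, which were chosen by a minimum of UMIs, were deeper than the comparison, and the part of that minimum in the difference was not tested. Their median depth was 3487 UMIs against 2078 at P7 and 3155 against 2390 at P30, and they held 323219 and 1800308 UMIs in all. Transcripts of mitochondrial coding genes took 2.25% against 2.898% of UMIs at P7 and 1.40% against 1.58% at P30. No barcode sequence occurred in both libraries. Barcodes that ended in N, the unread base, numbered 24 members at P7 and 27 at P30. Without these barcodes, and those 1 base apart from another, 135 of the 271 genes called higher in P7 members below were called again, and 442 of 489 at P30.

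The share of matrix barcodes that met the rule depends on depth. When barcodes were thinned to a common 600 UMIs, 3 marker UMIs were kept by 2.01% of matrix barcodes in the P7 library (1.21 to 3.31) and by 4.36% in the P30 library (3.67 to 5.18). At least 1 was kept by 13.6% (11.3 to 16.3) and 18.4% (17.0 to 19.8). The P30 share was the larger on each of these measures. Just inside the threshold, with 3 marker UMIs, lay 12 P7 and 95 P30 barcodes, and just outside it, with 2, lay 26 and 166. Median marker UMIs per member were 6 in both libraries, with a maximum of 25 at P7 and 45 at P30.

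The levels of the 5 markers chose the members and are given as a description. At P7 members held Igfbp3 at 739 CPM, Bmx at 640, Fgl2 at 458, Cxcl5 at 108 and Scn7a at 43.3. At P30 they held Igfbp3 at 1109 CPM, Fgl2 at 707, Bmx at 272, Scn7a at 196 and Cxcl5 at 77.8. Igfbp3 led in both libraries, followed by Bmx at P7 and by Fgl2 at P30. In the other matrix barcodes the highest of the 5 was Bmx at 27.4 CPM at P7 and Fgl2 at 65.5 CPM at P30, as the plot of marker levels shows.

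**Figure D1:**
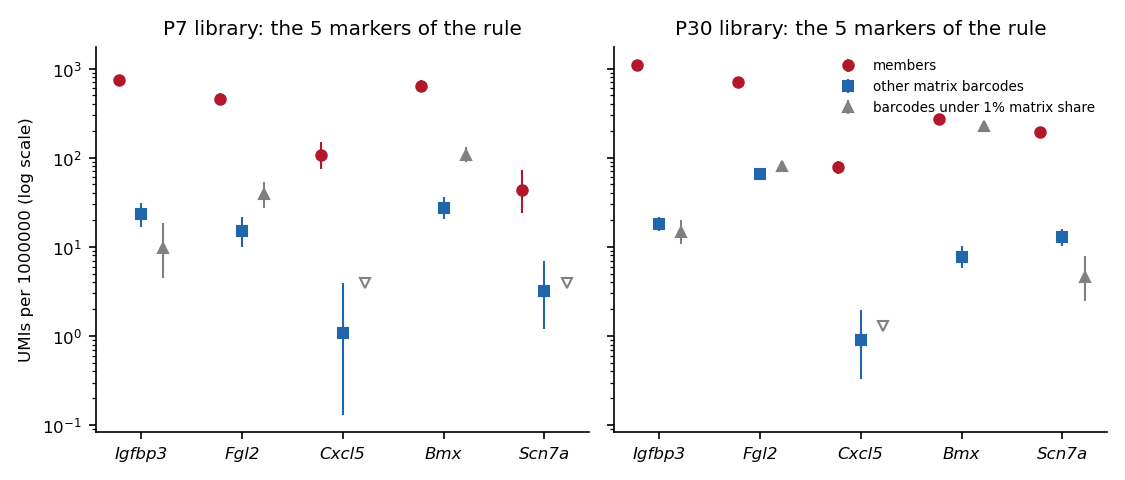
UMIs per 1000000 (log axis) of the 5 rule markers in members, in the other matrix barcodes and in barcodes under 1% matrix share, P7 library left and P30 library right. Bars are exact 95% Poisson intervals, and open triangles give the upper limit where no UMI was counted. Bmx in barcodes under 1% matrix share, at 108 and 227 CPM, lies above the other matrix barcodes in both libraries.

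Most members carried more than 1 marker gene. At P7 21 members carried 1 of the 5, 35 carried 2, 20 carried 3 and 5 carried 4. At P30 the numbers were 117, 194, 127 and 38, and 11 members carried all 5. Each marker was also higher in barcodes chosen by the other 4. Igfbp3 was at 440 CPM in the 55 P7 barcodes with at least 3 UMIs of the other markers against 91.0 in the rest, and at 768 against 142.5 CPM at P30. Cxcl5 had the highest such ratio in both libraries, 18.3-fold at P7 and 25.0-fold at P30. The lowest was 4.83-fold for Igfbp3 at P7 and 4.58-fold for Fgl2 at P30. The markers were picked on these libraries, so their company describes the set and supports nothing further.

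Beyond the rule genes, members had higher Cxcl1, Figf and Gas6 and lower Top2a, Chad and Prg4 than the other matrix barcodes in both libraries, and complement genes stood out at P30. A gene counted as measured where equal levels would have given at least 5 UMIs in each set, and as higher or lower at 2-fold. In the P7 library 271 of 7679 measured genes were higher in members (3.53%) and 630 were lower (8.2%). In the P30 library 489 of 11499 were higher (4.25%) and 594 were lower (5.17%). Median log2 ratios over all measured genes were 0.00 and -0.01. Of 7660 genes measured in both libraries 79 were higher in both, 29.5% of those at P7 and 54.5% of those at P30, and 162 were lower in both, 26.0% and 67.5%. For 6 genes the libraries went opposite ways.

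**Figure D2:**
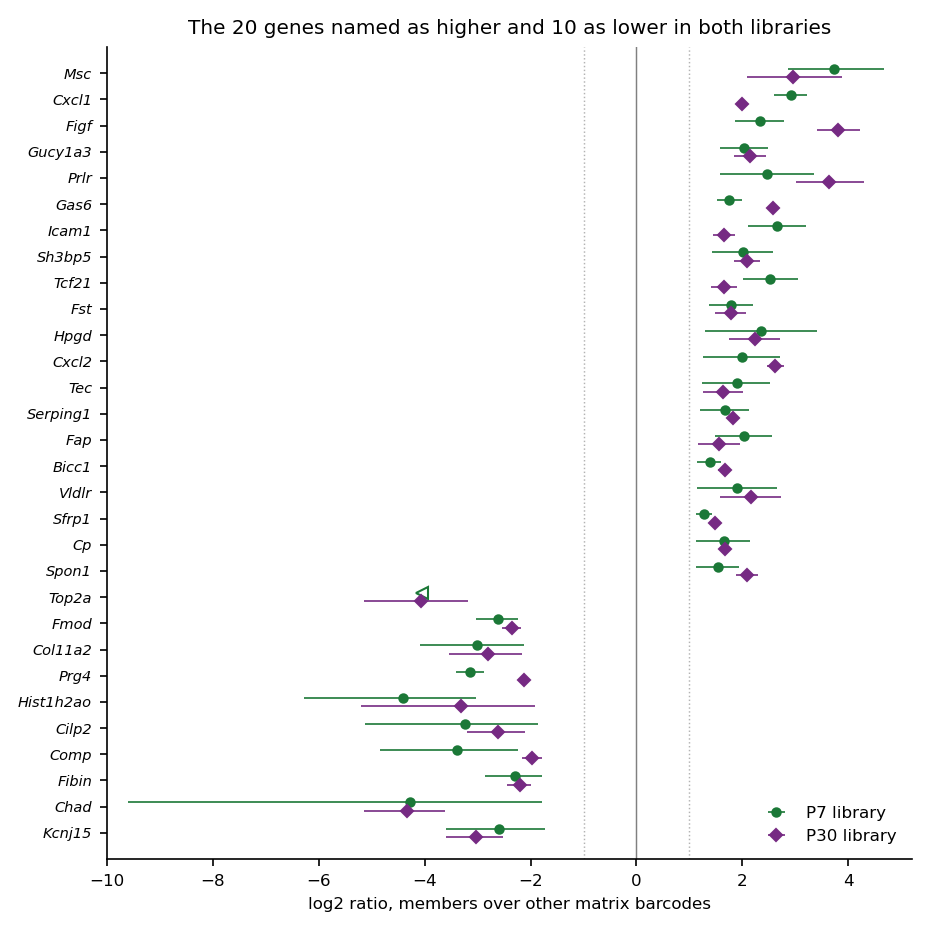
Log2 ratio of members over the other matrix barcodes for the 20 genes named as higher and the 10 named as lower in both libraries, with exact 95% intervals. Circles are the P7 and diamonds the P30 library, dotted lines mark 2-fold, and the open triangle is a bound for Top2a, which had no UMI in P7 members. Msc, Figf and Prlr lie farthest to the right, and Chad and Hist1h2ao, at -4.28 and -4.40 at P7, farthest to the left.

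The secreted signals came first. Cxcl1 was at 597 CPM in members against 79.5 in the other matrix barcodes at P7, a ratio of 7.51 (6.03 to 9.37), and at 2069 against 518 at P30, a ratio of 3.99 (3.81 to 4.19). Thinned to 600 UMIs, 22.5% of P7 members had a Cxcl1 UMI against 4.75% of the other matrix barcodes and 3.17% of barcodes under 1% matrix share. At P30 the thinned shares were 43.0%, 16.4% and 17.3%, and unthinned shares were 45.7% and 64.5% of members. Cxcl1 was thus seen in barcodes of every kind and was more frequent in members at both ages. Cxcl2 was at 89.7 against 22.6 CPM and at 453 against 73.5. Barcodes under 1% matrix share held more Cxcl2 than members, at 557 CPM at P7 and 1617 at P30.

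Figf, now called Vegfd, encodes a growth factor for lymphatic and blood vessels. It was at 226 CPM in members against 45.1 at P7 and at 143 against 10.3 at P30, a ratio of 14.0 (10.7 to 18.5). Gas6 encodes the ligand of the TAM receptors, which govern uptake of dying cells. It was at 705 CPM (617 to 803) against 209 at P7 and at 1656 (1597 to 1716) against 279 at P30. A Gas6 UMI was left after thinning in 32.5% and 46.2% of members, against 11.7% and 14.2% of the other matrix barcodes. Fst, encoding the activin antagonist follistatin, was at 241 against 69.8 and at 103 against 30.02 CPM. Barcodes under 1% matrix share held Fst at 113 CPM at P7 and at 107 at P30, near the level of P30 members. Sfrp1, encoding a secreted Wnt antagonist, was the most abundant of the 20 at P7, at 1686 against 698 CPM, and stood at 777 against 277 at P30.

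Transcription factors, receptors and enzymes made up the rest of the named genes. Msc encodes musculin, a bHLH repressor, and Tcf21 a bHLH factor of fibroblast precursors in the epicardium. Msc had the highest P7 ratio of the 20 genes, 114 CPM against 8.60, or 13.3-fold (7.23 to 25.6), and at P30 it was at 19.997 against 2.56. Tcf21 was at 201 against 34.9 and at 147 against 46.6 CPM. The prolactin receptor gene Prlr was at 71.2 against 12.9 and at 52.2 against 4.22, and the adhesion receptor gene Icam1 at 186 against 29.5 and at 187 against 59.3. Gucy1a3, a subunit of the nitric oxide receptor guanylate cyclase, was at 223 against 54.3 and at 113 against 25.6. Hpgd, which inactivates prostaglandins, was at 49.5 against 9.67 and at 46.7 against 9.95, and the ceruloplasmin gene Cp at 158 against 50.5 and at 744 against 234. Barcodes under 1% matrix share held more Hpgd than members, at 76.2 and 122 CPM. The fibroblast activation protein gene Fap was at 164 against 40.3 and at 54.4 against 18.6 CPM. Levels of Sh3bp5, Tec, Bicc1, Vldlr and Spon1 had ratios of 2.60 to 4.01 in the P7 library, with 3.11 to 4.45 in the P30 library. Sh3bp5 was at 142 and 161 CPM in members, near its 153 and 162 in barcodes under 1% matrix share.

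3 of the 20 genes fell below 2-fold in a library when members were chosen differently. Fst at P30 was at a log2 ratio of 0.81 with Bmx taken out of the rule, against 1.78. Vldlr at P7 was at 0.77 with Fgl2 taken out and 0.84 without barcodes ending in N or 1 base apart, against 1.90. Cp at P7 was at 0.94 with at least 5 marker UMIs, against 1.64. Some named genes overlap a gene on the other strand, Gas6 with Tmem255b, Sh3bp5 with Capn7, Cp with Hps3 and, further down, Prg4 with Tpr, Chad with Acsf2 and Nnat with Blcap. Among the rule markers Fgl2 overlaps Ccdc146. Whether strand was used in counting is not given in the sources used here, so such pairs cannot be told apart.

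**Figure D3:**
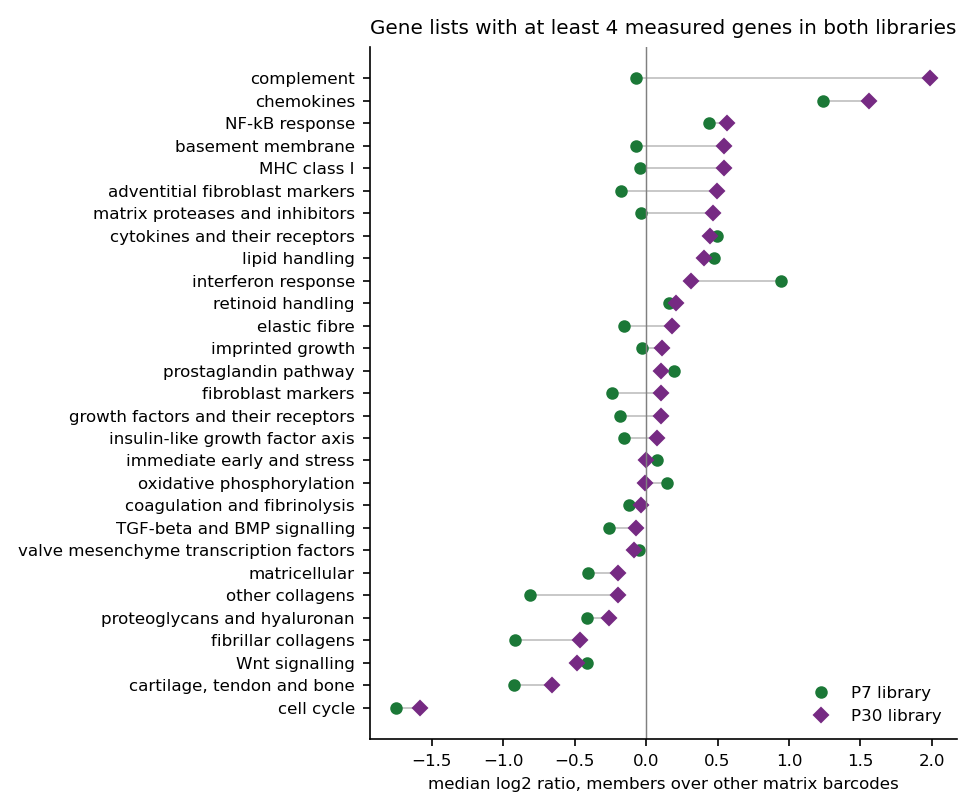
Median log2 ratio of members over the other matrix barcodes for each gene list with at least 4 measured genes in both libraries, circles for P7 and diamonds for P30. Chemokines lie at 1.24 and 1.56 and cell cycle genes at -1.75 and -1.58, while complement lies at -0.07 at P7 and 1.99 at P30.

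Complement genes stood out in the P30 members. Of 16 measured genes 11 were higher, 0 were lower and the median log2 ratio was 1.99, where 4.25% of all measured genes were higher and 5.17% lower. C3, the component on which the complement pathways converge, was at 105 CPM (90.5 to 121) against 9.35. C4b was at 512 against 65.3, C1ra at 194 against 45.9, C1s at 64.4 against 9.05 and C2 at 22.2 against 1.06. Serping1, the inhibitor of C1, was at 672 against 189, and the regulator Clu, at 397 against 668, was under 2-fold. C4a and C4b, and C1ra and C1rb, resemble each other closely, and reads may be split between them. In P7 members 1 of 6 measured complement genes was higher, Serping1 at 201 against 63.4 CPM, and C3 had no UMI in any P7 matrix barcode. The share of all measured genes that were higher at P7 was 3.53%.

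Part of the chemokine list was higher at both ages. At P7 3 of 6 measured genes were higher, Cxcl1, Cxcl2 and Ccl19, and the scavenging receptor gene Ackr3 was lower. At P30 12 of 18 were higher and 0 lower, where 3.53% of all measured genes were higher at P7 and 4.25% at P30. Ccl19, a ligand of the lymphocyte and dendritic cell receptor CCR7, was at 55.7 against 15.6 and at 154 against 52.9 CPM. At P30 Ccl7 was at 124 against 22.5, Ccl2 at 171 against 65.0 and Cxcl12, which retains blood cell precursors, at 226 against 90.7. The macrophage markers named above moved with this list. Without the barcodes that held at least 3 macrophage UMIs, a setting chosen after seeing the data, 8 of 15 chemokine genes were higher and 2, Ackr3 and Cxcl9, were lower, and Ccl8, Ccl12, Ccl3 and Ccl4 were no longer among the higher ones. The complement count was 11 of 16 without those barcodes too.

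Genes of inflammatory signalling were called higher in part, where 3.53% of all measured genes were higher at P7 and 4.25% at P30. Of the NF-kB response genes 2 of 14 measured at P7 were higher, Icam1 and Birc3, and 6 of 21 at P30, among them Tnfaip6 (452 against 204 CPM) and Steap4 (28.9 against 4.37), with 0 lower in both. Median log2 ratios were 0.44 and 0.57, and 13 of 14 and 18 of 21 genes lay above equal levels. Cytokine and receptor genes had 0 of 14 higher and 1 lower at P7, and 5 of 26 higher and 1 lower at P30. The cytokine gene Il6 was at 25.0 against 6.79 CPM at P30. The receptor chain genes Lifr, Csf2rb, Il17ra and Il1r1 were the other 4 that were higher there. Immediate early and stress genes, which respond to handling of tissue, had 1 of 34 higher at P7 and 0 of 34 at P30, with medians of 0.08 and 0.00.

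Interferon response genes were higher in part at P7 and mostly under 2-fold at P30. At P7 5 of 13 measured genes were higher and 0 lower, with all 13 above equal levels and a median of 0.94. Irf1 was at 483 against 213 CPM and Ifitm3 at 529 against 242. At P30 3 of 37 were higher and 1 lower, and the median was 0.31. The shares over all measured genes were 3.53% higher at P7 and 4.25% at P30. Isg15 was at 85.5 against 93.2 CPM and Ifit3 at 51.7 against 75.3. Major histocompatibility complex class I genes had 0 of 4 higher at P7 and 1 of 14 at P30, but all 14 lay above equal levels, with B2m at 3732 against 2469 CPM.

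Some lipid handling genes were higher in members. Of the lipid handling genes 4 of 13 measured at P7 and 7 of 22 at P30 were higher and 0 lower. Among all measured genes 3.53% and 4.25% were higher, and 8.2% and 5.17% lower. Angptl4, a secreted inhibitor of lipoprotein lipase, was at 121 against 38.1 and at 38.3 against 8.45 CPM. Apoe, the apolipoprotein E gene, was at 6243 against 2246 at P7 and 7828 against 4607 at P30. Retinoid genes had 0 of 6 higher and 1 lower at P7 and 2 of 11 higher and 1 lower at P30, with medians of 0.16 and 0.21. The retinoic acid producer Aldh1a2 was at 10.6 against 3.47 and the carrier Rbp4 at 28.9 against 3.17 at P30, where the retinoic acid degrading Cyp26b1 was at 1.11 against 10.6. Cyp26b1 was at 3.09 against 18.8 at P7, from 1 UMI in members.

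Growth factor genes split. Ptn, the pleiotrophin gene, was at 2172 against 1055 CPM at P7 and 1280 against 606 at P30, and Igfbp4, a second binding protein of insulin-like growth factors, at 1355 against 568 and 1306 against 528. The growth factor gene Igf1 was at 1296 against 1394 and at 869 against 1000.5, with ratios of 0.93 and 0.87. The growth factor gene Fgf18 was at 0 against 22.6 CPM at P7 and 8.89 against 33.0 at P30, and Areg at 0 against 21.0 and 9.44 against 29.0. Of 20 and 26 Wnt genes 7 and 5 were lower, among them Wnt16 at 74.3 against 177 and 64.4 against 221, and 1 and 3 were higher, with Sfrp1 in both. Over all measured genes 8.2% and 5.17% were lower, and 3.53% and 4.25% higher.

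Genes of cell division were low in members. Of 25 measured cell cycle genes 17 were lower at P7, and of 27 16 at P30, with 0 higher in both and medians of -1.75 and -1.58, where 8.2% and 5.17% of all genes were lower. The DNA topoisomerase gene Top2a had 0 UMIs in the 81 P7 members against 284 in the other matrix barcodes, at least 16.4-fold lower against a floor of 3 counts. At P30 it was at 5.55 CPM (2.66 to 10.2) against 93.4. Mki67 had 0 UMIs in P7 members, at least 16.4-fold lower, and was at 13.3 against 39.8 CPM at P30. The histone gene Hist1h2ao, one of a family of near-identical copies and therefore uncertain, was at 12.4 against 261 at P7 and 2.22 against 22.02 at P30.

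Cartilage and tendon genes were low in members. Of 16 measured genes 8 were lower and 0 higher at P7, and of 23 10 were lower and 1 higher at P30. Among all measured genes 8.2% were lower at P7 and 5.17% at P30. Chad, encoding the cartilage protein chondroadherin, was at 3.09 CPM, from 1 UMI, against 60.2 at P7, and at 8.89 (5.08 to 14.4) against 178 at P30. Comp, the cartilage oligomeric matrix protein gene, was at 18.6 against 193 and at 138 against 542, and the tendon transcription factor gene Scx at 34.0 against 73.1 and at 12.2 against 87.5. Cilp2, of the cartilage intermediate layer, was at 12.4 against 117 and at 17.2 against 106. Thinned to 600 UMIs, 0.187% of P7 and 0.662% of P30 members had a Chad UMI, against 2.67% and 6.90% of the other matrix barcodes.

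Several structural matrix genes were also lower, among lists of which most genes stayed under 2-fold. The lubricin gene Prg4 was at 377 CPM (313 to 451) in members against 3334 at P7 and at 1654 (1595 to 1715) against 7212 at P30. Fmod, a small proteoglycan of collagen fibrils, was at 176 against 1081 and 150 against 765. The minor fibrillar collagen genes Col11a1 and Col11a2 were lower at both ages, Col11a1 at 102 against 354 and 14.4 against 73.6 and Col11a2 at 30.9 against 250 and 11.1 against 78.0. The secreted protein gene Fibin was at 95.9 against 470 and 96.1 against 443, and the potassium channel gene Kcnj15 at 34.0 against 205 and 17.2 against 141. Fibrillar collagens had 3 of 6 lower at P7 and 2 of 6 at P30, and 0 higher. Proteoglycan genes had 7 of 20 lower and 1 higher at P7, and 7 of 25 lower and 2 higher at P30. The shares over all measured genes were 8.2% lower at P7 and 5.17% at P30. The thrombospondin gene Thbs4 was at 3.09, from 1 UMI, against 38.1 and at 3.33 against 51.4. Npy, encoding neuropeptide Y, was at 83.5 against 253 at P7 and at 7.78 against 431 at P30. In P7 members with Igfbp3 as their most abundant marker Npy was at 233 CPM (152 to 342), near the other matrix barcodes. It was at 16.7, from 1 UMI, in those with Fgl2 and at 0 in those with Bmx.

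A few matrix genes went the other way. The elastin gene Eln was at 282 against 119 CPM at P7 and 19.4 against 6.03 at P30, while Mfap5 of the elastic fibre was at 27.8 against 120 and 154 against 545. In P7 members with Igfbp3 as their most abundant marker Eln was at 512 CPM (388 to 663). It was at 184 (92.0 to 330) in those with Fgl2 and 143 (83.6 to 230) in those with Bmx. Col6a6 was at 173 against 77.9 and 27.8 against 8.60, and Nid2 of the basement membrane at 65.0 against 24.2 and 40.5 against 8.60. Of 22 basement membrane genes 5 were higher and 1 lower at P30, with Col15a1 at 264 against 116 and Smoc2 at 72.2 against 17.6. At P7 1 of 20 was higher and 4 lower. Protease genes had 4 of 20 higher and 1 lower at P7 and 7 of 25 higher and 0 lower at P30. For both lists, the shares over all measured genes were 3.53% higher and 8.2% lower at P7, and 4.25% and 5.17% at P30. The aggrecan-cleaving protease gene Adamts4 was at 74.3 against 17.7 and 37.8 against 16.4, and Adamts15 at 52.6 against 15.6 and 143 against 32.7.

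Markers of fibroblasts around vessels did not move as a block. At P30 8 of 22 measured adventitial markers were higher, among them Clec3b (51.1 against 17.3 CPM), Thy1 (49.99 against 17.2) and Penk (54.4 against 7.24). A further 6 were lower, among them Pi16 (38.9 against 146). At P7 2 of 14 were higher and 3 lower. Among all measured genes 4.25% were higher and 5.17% lower at P30, and 3.53% and 8.2% at P7. Oxidative phosphorylation genes had 0 of 22 called in either direction at both ages, with medians of 0.14 and 0.00.

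**Figure D4:**
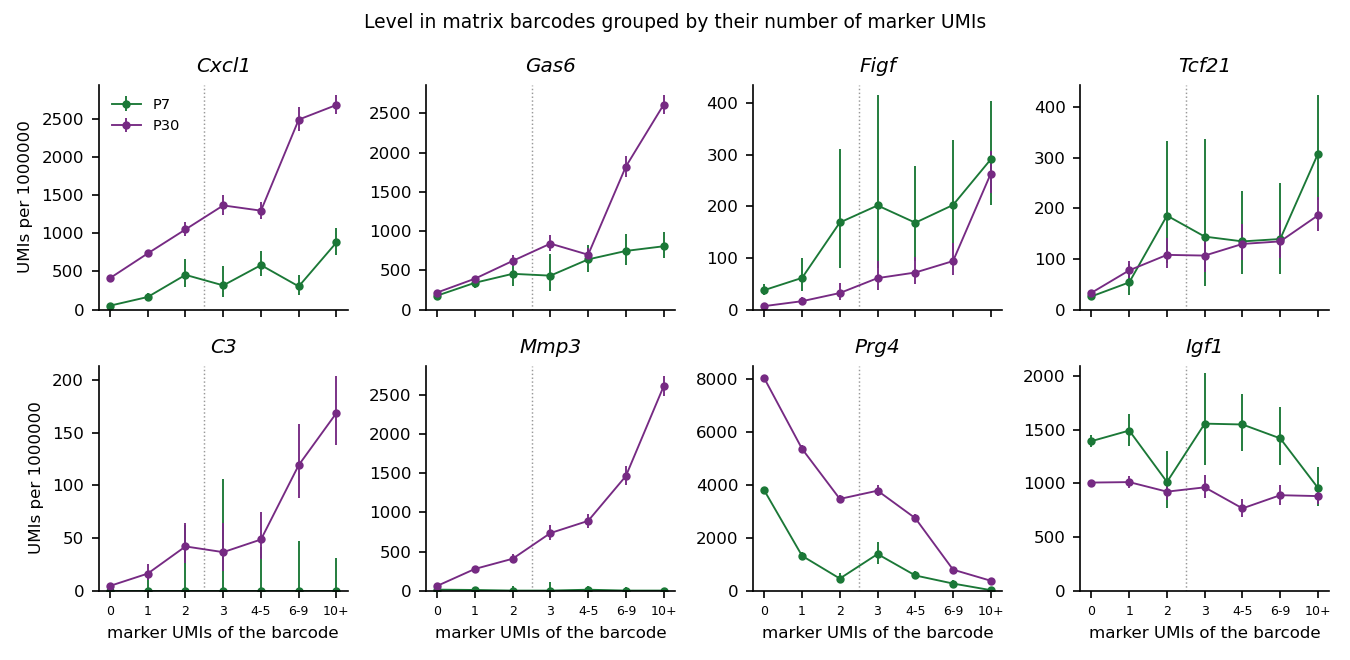
UMIs per 1000000 of 8 genes (vertical axes) in matrix barcodes grouped by their number of marker UMIs (horizontal axis), green for P7 and purple for P30, with exact 95% Poisson intervals. Barcodes right of the dotted line are members. At P30 Mmp3 climbs from 60.0 to 2617 CPM and Prg4 falls from 8030 to 372, while Igf1 stays between 766 and 1010.

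The values changed by degrees with the number of marker UMIs. At P30 Mmp3, the gene of stromelysin 1, a protease that degrades proteoglycans and collagens, was at 60.0 CPM in barcodes with 0 marker UMIs, 277 with 1, 408 with 2 and 737 with 3. It went on to 893 with 4 or 5, 1467 with 6 to 9 and 2617 with 10 or more. C3 went from 4.44 CPM with 0 to 42.0 with 2 and 169 with 10 or more, and Gas6 from 217 to 620 and 2611. Prg4 went the other way, from 8030 with 0 to 3468 with 2 and 372 with 10 or more. At P7 Cxcl1 went from 50.6 CPM with 0 to 455 with 2 and 881 with 10 or more, and Prg4 from 3787 to 455 and 16.6. Barcodes with 1 or 2 marker UMIs thus lay between those with 0 and those with 10 or more for these genes at P30. The threshold of 3 fell within this gradient of summed levels. Each level was summed over barcodes sorted by a sparse count. Whether single cells form a graded series or a mixture was therefore not tested. Median depth also went from 2315 UMIs with 0 to 3433 with 10 or more at P30 and from 2092 to 5186 at P7, and its part in the gradient was not tested.

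Members were not uniform. Igfbp3 was the most abundant marker in 28 P7 and 193 P30 members, Fgl2 in 17 and 167, Bmx in 26 and 52, Cxcl5 in 4 and 8, and Scn7a in 0 and 31, with 6 and 36 ties. Msc went with Igfbp3. It was at 206 CPM (131 to 310) in P7 members led by Igfbp3, 101 in those led by Bmx and 16.7, from 1 UMI, in those led by Fgl2. At P30 it was at 49.2 (32.7 to 71.2), 5.17, from 1 UMI, and 7.12.

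Fst went with Bmx instead, at 422 CPM (313 to 556) in P7 and 393 (309 to 492) in P30 members led by Bmx. Members led by Igfbp3 had Fst at 98.7 and 96.7, and those led by Fgl2 at 218 and 64.0. Cxcl1 was similar across the leading markers at P7, at 521, 670 and 675 CPM for Igfbp3, Fgl2 and Bmx, with overlapping intervals. At P30 it was at 2140, 1732 and 2945, and at 5330 in the 8 members led by Cxcl5.

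The matrix remnant also differed within the set. Prg4 was at 2836 CPM (2713 to 2964) in P30 members led by Fgl2, 779 in those led by Igfbp3 and 289 in those led by Bmx. At P7 it was at 184, 781 and 186 in the same order, so the group with the highest Prg4 level was another at each age. Median depth of the P30 groups was 2777 UMIs for Igfbp3, 3341 for Fgl2 and 3015 for Bmx.

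**Figure D5:**
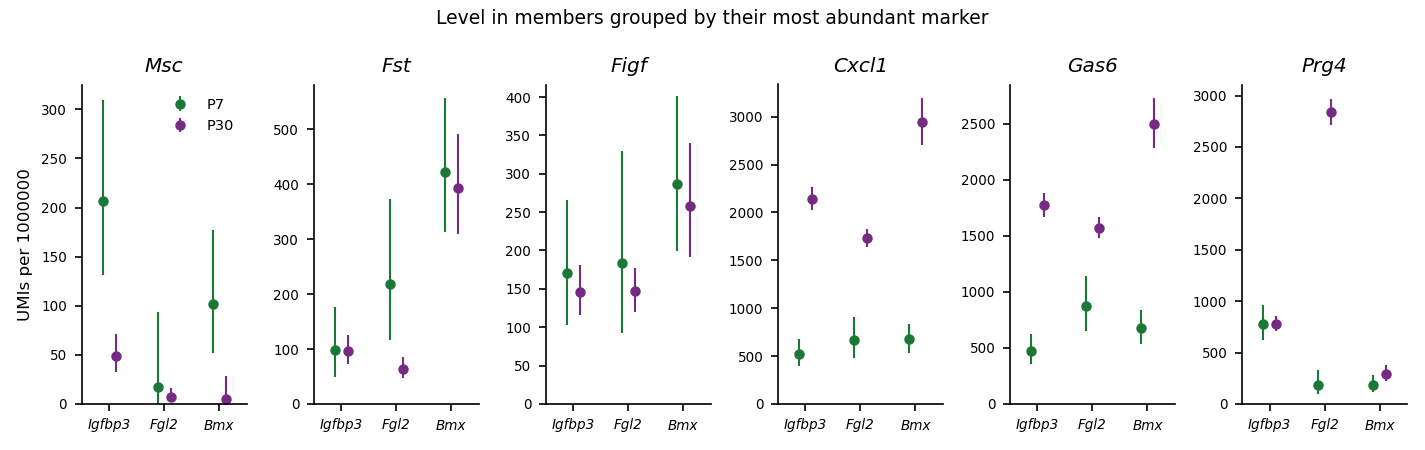
UMIs per 1000000 of 6 genes in members grouped by their most abundant marker (horizontal axis), green for P7 and purple for P30, with exact 95% Poisson intervals. Msc is highest with Igfbp3 and Fst with Bmx in both libraries.

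Between the ages, most measured complement, chemokine, class I and interferon response genes were higher in members of the P30 library, and the elastin gene and part of the imprinted and fibrillar collagen genes were lower. The other matrix barcodes had medians of the same sign in these lists. Of 7064 genes measured in members 671 were higher at P30 (9.5%) and 921 lower (13%). The median log2 ratio was -0.19. Higher genes were 42.1% of those called, and 59.3% under median-of-ratios scaling, which recentres that median. Members and other matrix barcodes of an age share the library, so their values are given side by side.

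Mmp3 was nearly absent from P7 members. It was at 3.09 CPM in P7 members, from 1 UMI, and 1608 (1550 to 1668) in P30 members, against 11.3 and 125 in the other matrix barcodes. Thinned to 600 UMIs, 33.6% of P30 members had a Mmp3 UMI against 4.68% of the other matrix barcodes, and 1.03% of barcodes under 1% matrix share. The complement gene C4b was at 24.8 CPM in P7 and 512 in P30 members, against 17.7 and 65.3. C3 was at least 11.3-fold higher in P30 members against a floor of 3 counts at P7, and at least 5.80-fold higher in the other matrix barcodes. The metal-binding metallothionein gene Mt1 was at 9.28 and 382 CPM in members, against 33.3 and 260.

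Other genes were higher at P30 in both sets. Gsn, encoding the actin-severing gelsolin, was at 674 CPM in P7 and 7278 in P30 members, against 761 and 6317. The class I gene H2-K1 was at 18.6 and 449, against 14.5 and 227. Ifi27l2a had 0 UMIs in P7 members and was at 815 CPM in P30 members, at least 87.9-fold higher, against 4.84 and 657. Ly6a, the Sca-1 surface antigen gene, had 0 UMIs and was at 198 CPM, at least 21.4-fold higher, against 1.07 and 75.0.

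Over the lists, 12 of 13 measured complement genes, 15 of 16 chemokine genes and 11 of 11 class I genes were higher in P30 members and 0 were lower. Among all genes measured in members 9.5% were higher and 13% lower. Over the 14 chemokine genes measured in both sets the median log2 ratio was 1.65 in members and 1.71 in the other matrix barcodes, and over the 11 class I genes 2.17 and 2.23. Of 31 interferon response genes 22 were higher and 1 lower. Over the same 31 genes the median log2 ratio was 1.64 in members and 2.52 in the other matrix barcodes, and it was smaller in members for 27 of them. For the 12 complement genes measured in both sets the medians were 2.08 and 1.73, and the ratio was larger in members for 8. In these medians and counts a set with 0 UMIs at P7 stood at the floor of 3 counts. P7 members held 323219 UMIs and the other matrix barcodes 1861337, so that floor is a higher level in members. It caps the ratio of such genes at a smaller value in members, and its part in the differences between the sets was not tested.

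The 8 genes named as lower at P30 were lower in the other matrix barcodes too. Eln was at 282 CPM in P7 and 19.4 in P30 members, against 119 and 6.03. The fibrillin gene Fbn2 was at 430 and 42.2, against 505 and 26.5, and the cartilage collagen gene Col9a1 at 136 and 8.33, against 349 and 39.7. Sfrp2, a secreted Wnt antagonist, was at 3335 and 262, against 2328 and 253 in the other matrix barcodes. Cthrc1, a secreted protein of repairing matrix, was at 288 and 12.8, against 380 and 57.0. Clca1 was at 442 and 18.9, against 99.4 and 7.54, and Nrep, a neuronal regeneration related gene, at 872 and 85.5, against 821 and 78.4. The imprinted gene Nnat, neuronatin, was at 114 and 2.78, against 24.2 and 5.73. Of 11 imprinted genes 6 were lower and 0 higher, with a median of -1.54 in members and -1.09 in the other matrix barcodes. Of 5 fibrillar collagen genes 3 were lower and 0 higher, with medians of -1.12 and -1.58. Among all genes measured in members 13% were lower.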

How the data were processed

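The authors deposited UMI counts per gene and cell barcode for each library, whole numbers without normalization, and these deposited counts were used. Their normalized tables were not used. Per the submitters' processing notes, Bowtie2 2.2.7 and the build mm10 were used, without further detail. The program that counted UMIs is not given in the sources used here, nor is its annotation.

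Counts were summed over members and over the other matrix barcodes of the same library and divided by summed UMIs (numpy 2.4.6, scipy 1.17.1, pandas 2.3.3). A gene was measured where equal levels would give at least 5 UMIs in both sets. Levels carry exact Poisson, ratios exact binomial and shares Clopper-Pearson (thinned shares Wilson) 95% intervals, which cover counting error only. A set at 0 was placed at a floor of 3 counts, giving bounds. Thinned shares are expectations at 600 UMIs. The calculation was tested on simulated data.

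Members and all 29 gene lists and 12 cell type lists were chosen with earlier results of these data known, so counts over them describe and support nothing independently. Of 842 list genes 826 were in the tables, 6 of them by an older symbol. Named genes were those measured and at least 2-fold apart the same way in both libraries whose interval bound nearest to equal levels, in the library where it is nearest, was farthest from it, 20 higher and 10 lower, and 8 per direction by that bound between ages. Rule genes were left out, as were genes without a proper name and those of haemoglobin, mitochondria and ribosomal proteins. Other genes appear as list members, and Npy was chosen after its values were seen. Alternatives changed the thresholds, the markers, the scaling, the weighting and the barcodes kept.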

Additional observations from a re-analysis of the deposited data

Results flagged for a closer look

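Marker UMIs also occurred outside the fibroblasts. Under 1% matrix share, 12 of 239 P7 barcodes, or 5.02% (2.62 to 8.61), and 69 of 666 P30 barcodes, or 10.4% (8.15 to 12.9), held at least 3 marker UMIs. They were picked out because the comparisons did not use these barcodes. Of the 12 barcodes at P7, 9 held Bmx, 5 Fgl2, 1 Igfbp3 and 0 Cxcl5 or Scn7a, and 12 held at least 3 endothelial UMIs. Of the 69 at P30, 50 held Bmx, 36 Fgl2, 8 Igfbp3, 4 Scn7a and 0 Cxcl5, while 47 held at least 3 endothelial and 16 at least 3 macrophage UMIs. At P7 1 of the 12 held at least 3 macrophage UMIs. Over all barcodes under 1% matrix share, 51.0% at P7 and 40.1% at P30 held at least 3 endothelial UMIs. At least 3 macrophage UMIs were held by 30.5% and 46.8% of them. Bmx and Fgl2 thus also occurred in barcodes under 1% matrix share. Most of those with at least 3 marker UMIs held at least 3 endothelial UMIs. The part of mixed droplets in the members was not tested.

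Nnat stood out because the libraries went opposite ways. Its log2 ratio of members over the other matrix barcodes was 2.24 (1.58 to 2.903) at P7 and -1.05 (-2.75 to 0.30) at P30, where members held 5 UMIs. The difference between the libraries was not tested.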

How the results depend on the processing

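No paired analysis was possible because each age is 1 library. The member share at P7 and P30 was 14.8% and 22.9% with at least 2 marker UMIs, 7.76% and 11.0% with at least 5, 7.62% and 12.4% without Igfbp3 in the rule, 8.86% and 11.6% without Fgl2, 8.03% and 15.6% without Bmx, 15.7% at P30 without Scn7a, and 14.1% at P30 with marker UMIs also at least 0.1% of the barcode. With 2 expected UMIs as the minimum, 632 genes were higher and 1117 lower in P7 members, 832 and 913 in P30 members, and 1026 and 1622 between ages, with 143 higher in both libraries. With 10, the counts were 107 and 274, 318 and 354, and 389 and 425, with 40 higher and 98 lower in both. These minimums change the number of genes measured. Median-of-ratios scaling left 602 genes lower and 877 higher at P30. Without barcodes carrying endothelial, macrophage or mural markers, 434 were higher and 471 lower between ages, and 47 higher and 88 lower in both libraries. Of the P7 calls 27.7% of the higher and 29.8% of the lower, and of the P30 calls 55.0% and 52.0%, were also made there; the cause was not tested. The median of imprinted genes between ages had the other sign, 0.0214, with 10 expected UMIs, where fewer genes were measured. The remaining list medians stayed within 1 SD over their genes in 1556 cases and moved further in 3, all for MHC class I at P7. Of the named genes' ratios 1235 stayed within their counting interval, 133 moved outside it and 0 changed sign. Depth limits the P7 library most, where members held 323219 UMIs.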

Other observations

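The remaining lists are given by their counts, where 3.53% of all measured genes were higher and 8.2% lower at P7, and 4.25% and 5.17% at P30. Prostaglandin genes had 1 of 6 higher and 1 lower at P7 and 3 of 14 higher and 2 lower at P30, and coagulation genes 2 of 12 and 2 lower, then 4 of 18 and 1 lower. Gas6, held by that list too, was higher at both ages. Genes of TGF-beta and BMP signalling had 2 of 26 higher and 4 lower at P7, with 3 of 28 and 1 at P30. The BMP antagonist gene Chrdl1 was lower at both, at 21.7 against 129 CPM and 16.7 against 107. The receptor gene Acvrl1 was higher at both, at 52.6 against 13.4 and 29.99 against 9.35.

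The list of matricellular genes had 1 of 17 higher and 5 lower at P7 and 2 of 19 higher and 7 lower at P30, with Abi3bp at 340 against 1483 and 443 against 992 CPM. Elastic fibre genes had 1 of 20 higher and 5 lower, then 2 of 22 and 4. Collagens outside the fibrillar group had 2 of 10 higher and 3 lower, then 2 of 12 and 3. The insulin-like growth factor axis had 1 of 13 higher and 4 lower at P7 and 2 of 15 higher and 3 lower at P30. Transcription factors of the valve mesenchyme had 3 of 17 higher and 2 lower, then 3 of 20 and 0, with Twist2 at 55.7 against 21.0 and 51.1 against 16.1. Imprinted genes had 2 of 12 higher and 1 lower, then 0 of 14 and 2.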
